A study of Mus musculus with 48 samples.

Results

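The data set is the paired chromatin accessibility of clones 1 to 13 of mouse bone marrow ER-Hoxb8 cells, measured by ATAC-seq as progenitors and as monocytes. The clones were taken by their number in the sample titles. They gave 26 of the 48 libraries of the series, 13 progenitor and 13 monocyte, and the other 22 libraries came from clones 15 to 25. Libraries titled Plus came from cells whose source is given as GMP, the granulocyte-monocyte progenitor. Libraries titled Minus came from cells labelled monocytic. Medium with serum, antibiotics and SCF is given for both stages. The agent and the length of the maturation, and the strain, sex and age of the mice, are not given in the labels. Every library is 1 clone measured 1 time. The p-value of a region therefore sets its mean change between stages against how much that change differs between clones. Technical differences that vary from clone to clone are included in that spread. Those that run with the stage enter the mean change instead, and cannot be told apart from maturation.

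ER-Hoxb8 cells are myeloid progenitors that a conditionally active Hoxb8 protein keeps dividing and immature. When that activity is withdrawn, they stop dividing and mature. A granulocyte-monocyte progenitor can give rise to neutrophils and to monocytes, and monocytes are blood phagocytes that can become macrophages in tissues. In ATAC-seq, a transposase cuts and tags DNA that is not covered by nucleosomes, so a peak marks an open region such as a promoter or an enhancer. The question was whether an open region held by both stages took a different place in the order of regions after maturation, and whether it did so in every clone.

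The progenitor lists held 72804 ± 23600 peaks (SD, n = 13), from 11114 in clone 11 to 106708 in clone 12. The monocyte lists held 25517 ± 5420 peaks (SD, n = 13), from 13606 in clone 3 to 32285 in clone 12. Lists of such unequal length cannot be compared by presence without a cut, so the comparison used ranks of regions that both lists held. At the median shared region, the signal stood for 30 tags in the progenitor list of clone 11 and 178 to 621 in the other 12. It stood for 35 tags in the monocyte list of clone 10, 37 in that of clone 3, and 140 to 254 in the other 11. Monocyte peaks were also wider, with median widths of 120 to 182 bp per list against 86 to 130 bp in progenitors.

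The progenitor library of clone 11 stood apart. Over the shared regions its mean Spearman correlation with the other progenitor libraries was 0.607, below its 0.688 with the monocyte libraries. On the first principal component, which held 34.2% of the variance, it scored 654. That is inside the monocyte range of 314 to 692, while the other 12 progenitor libraries lay between -965 and -70. The progenitor library of clone 10 was as close to monocytes as to its own stage, at 0.794 and 0.793. The monocyte libraries of clones 3 and 10 correlated at 0.844 and 0.817 with the other monocytes. They had the fewest tags of their stage at the median shared region. The counts of calls, the similarity of clones and the match within a clone are given below with and without these 3 clones. In the most alike pair, the monocytes of clones 5 and 11, the tags had a chi-square of 2.56 per degree of freedom. That is a ratio of variances, set against counting error only. These libraries were counted as separate samples. Monocytes of clones 1, 5 and 11 correlated with each other at 0.9749 to 0.9825. Those of clones 2, 6, 7 and 13 did so at 0.9767 to 0.9811. Across these groups the values were 0.8537 to 0.8954. The cause was not tested, and the tests below take the 13 clones as independent.

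**Figure D1:**
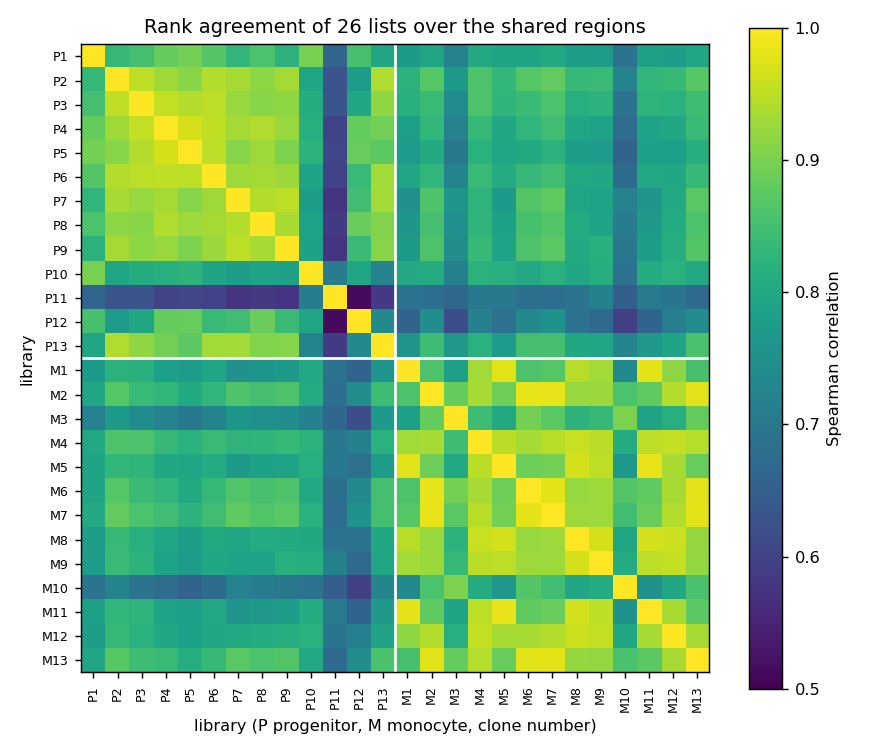
Spearman correlation of region ranks between each pair of the 26 libraries over the 8030 shared regions, with P for progenitor, M for monocyte, the clone number on both axes, and white lines between the stages. The darkest row and column are the progenitor library of clone 11, whose lowest value is 0.513 with the progenitors of clone 12.

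Within a clone, most peaks of the monocyte list lay on a peak of the progenitor list, but not the reverse. The overlapping share of monocyte peaks was 86.9% to 98.7% in 12 clones and 37.1% in clone 11. The overlapping share of progenitor peaks was 16.9% in clone 3 to 49.6% in clone 2, and 82.7% in clone 11. The lists of a clone shared 9096 regions in clone 11 to 29360 in clone 12. In clone 11 alone, the progenitor list was the shorter of the pair.

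Peaks held at both stages stood higher in each list than the peaks held at one stage. Their median percentile in the progenitor list, where 100 is the highest peak, was 56.1 in clone 11 to 90.8 in clone 3, against 25.6 to 40.8 for the progenitor peaks with no monocyte partner. In the monocyte list, where nearly all peaks overlapped in 12 clones, the overlapping peaks had medians of 50.9 to 55.7 in those clones and 80.5 in clone 11. The rest had 15.4 to 33.7. The ordering itself was largely kept within a clone. Spearman correlations between the stages, over all regions a clone shared, ran from 0.700 in clone 11 to 0.898 in clone 2.

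Merging the 26 lists gave 158521 regions, of which 8030 (5.07%) had a peak in all 26 lists. These shared regions had a median width of 255 bp, and 87.9% of them held a single peak in every list. Another 3086 regions were missing from 1 list only, and for 2527 of these that list was the progenitor list of clone 11. A further 108099 regions occurred in progenitor lists only and 5387 in monocyte lists only, and no rank change exists for them. The shared regions stood near the top of progenitor lists, where their median list percentile was typically 94.0, the median over 13 lists. In the shorter monocyte lists it was typically 83.3. For this reason each library was ranked over the 8030 regions alone, and a change is given in percentile points of that ranking.

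From progenitor to monocyte, 1922 regions rose in rank and 1761 fell (limma, clone as block, adjusted p below 0.05). These are 23.9% and 21.9% of the 8030 tested, and 4347 regions passed in neither direction. The median change was 14.05 points among the risen and -15.1 among the fallen, against 0.208 over all regions. A change of at least 10 points was seen in 1492 of the risen regions (18.6% of those tested) and 1446 of the fallen (18.0%). Far fewer moved a long way: 442 rose (5.50% of those tested) and 492 fell (6.13%) by at least 20 points, and 90 rose (1.12%) and 124 fell (1.54%) by at least 30. The SD of a region's 13 clone differences had a median of 12.8 points, about the size of a typical called change.

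A call did not mean that every clone moved. Among the called regions, 407 rose in all 13 clones (5.07% of those tested) and 359 fell in all 13 (4.47%). Every monocyte value lay above every progenitor value in 97 regions (1.21%), and below every one in 80 regions (0.996%). Without clone 11 the counts were 2126 risen and 1999 fallen, and without clones 3, 10 and 11 they were 2305 and 2190, a set of clones chosen after the data were seen. Of the regions called with 13 clones, 94.7% of the risen and 95.2% of the fallen were called again without those 3 clones. Without clones 1, 6 and 13, also chosen after the data were seen, 1530 rose and 1411 fell, and 78.1% and 78.0% of the first calls were made again.

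The calls depend on the scale and on the score. With the percentile of a region in the whole deposited list, each clone centred on its median difference, 2289 regions rose and 2148 fell. Only 57.1% of the risen and 58.4% of the fallen were among them, and 107 called regions were called the opposite way. Over all 8030 regions, 28.5% rose and 26.7% fell on that scale. When peaks were ranked by the second deposited score, whose meaning is not given in the sources used here, 1441 rose and 1369 fell. Of the first calls, 25.7% of the risen and 38.5% of the fallen were called again, and 300 were called the opposite way. Over all 8030 regions, 17.9% rose and 17.0% fell with that score, so the share for the risen was only somewhat above that of any region. The counts of risen and fallen regions therefore belong to the first score ranked over the shared regions.

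**Figure D2:**
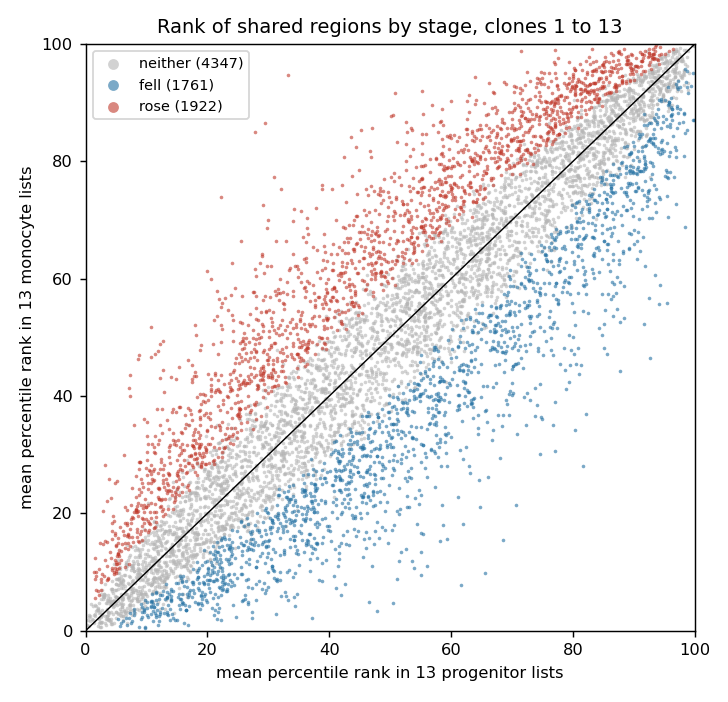
Mean percentile rank of each of the 8030 shared regions in the 13 monocyte lists (vertical) against the 13 progenitor lists (horizontal), both in percentile points, with risen regions in red, fallen in blue and the rest in grey. Regions far from the diagonal occur on both sides, and most regions lie within a band along it.

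Risen and fallen regions were found in every class of rank among the 8030 shared regions. These stood mostly near the top of the whole lists, and regions missing from any list were not tested. The regions were split into 5 equal classes by their mean percentile over all 26 lists. The risen share was lowest in class 1, the lowest ranks, at 16.6%, and highest in class 4, at 28.3%. The fallen share was highest in class 2, at 26.5%, and lowest in class 5, the highest ranks, at 16.3%. Class 5 held 443 risen and 262 fallen regions, and class 1 held 267 and 371. The widths of the classes were alike, with medians of 252 bp for risen, 258 bp for fallen and 255 bp for the other regions.

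The surroundings of the classes also differed little. Risen regions had on average 7.68 other regions held by at least 7 progenitor lists within 50 kb, fallen regions 7.37 and the rest 7.33. For regions held by at least 7 monocyte lists the means were 3.09, 2.81 and 2.95. These are descriptions over regions that were merged from the same lists, and no test was run on them.

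The region that rose furthest among those moving one way in all 13 clones lay at chr4:148681819-148682061 (mm9). Its percentile in progenitors was 13.7 at the lowest, 28.1 at the median and 40.3 at the highest. In monocytes these values were 71.6, 86.0 and 96.2. The groups did not overlap, and the 13 clones rose by 42.1 points in clone 11 to 77.9 in clone 3. The mean rise was 57.3 points (SE 3.61, limma adjusted p = 4.61e-08). In the whole lists its median percentile was 89.9 in progenitors and 95.1 in monocytes, so it was among the higher peaks at both stages.

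The next was at chr7:7230896-7231222. Its progenitor percentiles ran from 6.50 through a median of 16.2 to 68.2, the highest being the library of clone 11. Its monocyte percentiles ran from 49.9, in clone 10, through 78.4 to 87.1. The groups overlapped only through that progenitor library, since the next highest progenitor value was 39.6. Its mean rise was 51.7 points (SE 5.26), with a limma adjusted p of 1.78e-06. Ranked by the second score, its rise was 11.6 points and did not pass the test (limma adjusted p = 0.305).

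At chr17:80461536-80461826 the percentiles were 20.9, 31.1 and 42.8 in progenitors (lowest, median, highest) and 67.3, 76.9 and 90.9 in monocytes. There was a gap between the groups, and the smallest rise was 30.6 points, in clone 10. Its mean rise was 46.4 points with an SE of 3.21. A region at chr4:8617216-8617622 went from a median of 18.2 to one of 61.2. Its progenitor values ended at 40.3 and its monocyte values began at 55.1, so these groups did not overlap either. In the whole lists its median percentile was 87.9 in progenitors and 87.2 in monocytes, but those lists differ in length. With each clone centred on its median difference, the region rose by 10.3 points on the whole-list scale (limma adjusted p = 1.13e-05).

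The region at chr14:99697690-99697901 started lowest of the 12 named risen regions. Its progenitor percentiles were 0.205 at the lowest and 6.65 at the median, and they reached 31.7 in clone 9. Its monocyte percentiles were 8.70 at the lowest, in clone 3, 53.6 at the median and 64.9 at the highest. Clone 3 rose by just 1.36 points while the mean rise was 38.3 (SE 3.88), so the groups overlapped. The region at chr10:82092432-82092737 had the highest monocyte mean of the 12, 85.7, with percentiles of 79.5 to 90.5 and a median of 85.4. In progenitors it spread from 17.3 to 68.9 around a median of 53.9. Its rise of 38.7 points was 8.87 with the second score, which did not pass the test (limma adjusted p = 0.220).

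The 12 named risen regions together had progenitor means of 8.82 to 47.0 and monocyte means of 47.1 to 85.7. Their rises were 38.0 to 57.3 points, with SE of 2.94 to 5.26. In 8 of the 12 the progenitor and monocyte values did not overlap. They lay on chromosomes 4, 7, 10, 11, 13, 14 and 17, with chromosome 10 at chr10:62801693-62801976 as well as at the position above. In 3 of the 12, those at chr17:6106471-6106913, chr10:82092432-82092737 and chr10:62801693-62801976, a separate progenitor peak lay within 500 bp in 13, 13 and 10 lists. The same window held a separate monocyte peak in 0, 0 and 1 lists. Separate progenitor peaks also lay within 500 bp in 5 lists at chr13:105018863-105019085 and in 2 at chr7:7230896-7231222. Of all 8030 shared regions, 18.7% had a region held by at least 7 progenitor lists within 500 bp. For regions held by at least 7 monocyte lists the share was 3.76%. With peaks merged across gaps of up to 500 bp, the first 3 of these regions rose by 41.3, 38.5 and 38.1 points, against 40.9, 38.7 and 38.3 without merging. A merged region kept its highest signal, so a lower neighbouring peak could not change it. What those peaks add to the rises was not tested.

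The region that fell furthest, also among those moving one way in all 13 clones, lay at chr8:74189485-74189882. Its progenitor percentiles were 37.4 at the lowest, 71.4 at the median and 79.2 at the highest. In monocytes they were 0.0996, 5.04 and 38.2. The single overlap was between the progenitors of clone 11, the lowest of their group, and the monocytes of clone 3, the highest of theirs. Its mean change was -55.7 points (SE 4.14, limma adjusted p = 9.11e-08). On the whole-list scale, with each clone centred, its change was -36.2 points.

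At chr17:27962970-27963305 the progenitor percentiles ran from 26.6 through 70.0 to 90.4, and the monocyte percentiles from 0.747 through 6.23 to 18.5. These groups did not overlap, although the progenitor values were widely spread. The mean change was -53.8 points with an SE of 5.64, and clone 11 changed least, by -15.7. The region at chr7:6335858-6336096 had progenitor percentiles of 65.5, 82.2 and 94.6, and monocyte percentiles of 20.6, 26.3 and 42.1. A gap of more than 20 points separated its groups, and its mean change was -53.6 (SE 3.86). Ranked by the second score, the first of these regions changed by -22.1 points (limma adjusted p = 0.00786). The second changed by -19.2 points and did not pass (limma adjusted p = 0.0671).

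The region at chr18:67448534-67448899 was among the very highest peaks of progenitors. Its progenitor percentiles were 72.0 in clone 11 and 87.6 to 97.8 in the other 12 clones. Its monocyte percentiles were 28.1 to 58.4, with a median of 47.2. The groups did not overlap, and the mean change was -46.0 points (SE 3.04). Ranked by the second score it moved the other way, by 19.95 points, without passing the test (limma adjusted p = 0.101).

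At the low end, the region at chr9:14822646-14822930 had monocyte percentiles of 0.156 to 12.6 with a median of 1.65. Its progenitor values ran from 9.33 to 81.8, and the lowest of them lay among the monocyte values. The region at chr10:7065228-7065471 was similar, with a median of 2.90 in monocytes and progenitor values of 16.2 to 92.1. No clone numbered 15 to 25 held either region in both of its lists. The lowest shared region stood for 5 to 10 tags per monocyte list, so ranks near that end rest on few tags.

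The 12 named fallen regions had progenitor means of 47.9 to 92.6 and monocyte means of 3.29 to 46.6. Their changes were -55.7 to -44.6 points, with SE of 3.04 to 5.91, and the groups did not overlap in 6 of the 12. On the whole-list scale, with each clone centred, the fallen regions changed by -40.2 to -8.55 points and the 12 risen regions by 10.3 to 17.1. All 24 passed the test on that scale too, and the sizes in the 2 directions overlapped. Both scales rank the same signal from which the 24 were picked, so this is not an independent check.

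**Figure D3:**
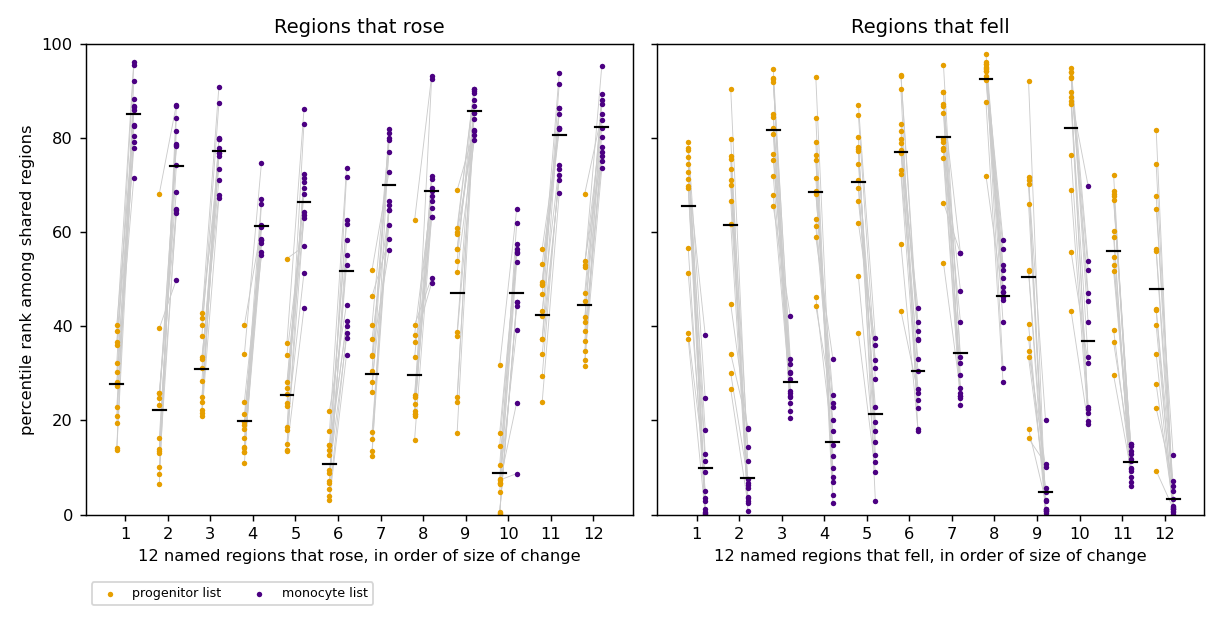
Percentile rank among the shared regions (vertical) of the 12 named regions that rose and the 12 that fell, with orange points for the 13 progenitor lists, purple points for the 13 monocyte lists, grey lines joining the lists of a clone and black bars at the means. The means move by 38.0 to 57.3 points upwards on the left and by -44.6 to -55.7 on the right.

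The direction of the calls was checked in clones that had no part in them. With each clone left out in turn, regions were called in the other 12, and their direction was read in the clone left out. Of the risen regions, 54.0% (clone 11) to 96.4% (clone 4) rose in the clone left out, with a median over clones of 90.3%. Of the fallen regions, 53.3% (clone 11) to 96.6% (clone 5) fell, with a median of 90.0%. Among regions called in neither direction, 47.7% to 52.2% rose.

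Clones 10 and 11 stood below the other 11. In clone 10, 66.5% of the risen rose and 68.4% of the fallen fell, while the other 11 clones had at least 81.4% and 80.1%. In clone 11 the shares were near those of regions with no call. The sizes went the same way. Regions called as rising in the other 12 clones rose by a median of 1.43 points in clone 11, 8.13 in clone 10 and 11.3 to 18.5 in the rest. These were the 2 clones whose progenitor library correlated at least as well with monocytes as with its own stage. The progenitor list of clone 11 also had the fewest tags of its stage at the median shared region. The part of depth in this was not tested.

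Clones 15 to 25, whose lists were used for none of the calls, moved mostly the same way. Ranked over the regions that both their lists held, 62.1% to 75.5% of the risen regions rose and 65.8% to 79.5% of the fallen fell in each of the 11 clones. Of the remaining regions, 39.6% to 49.9% rose. Their lists held between 143 of the regions, in clone 22, and 6250, in clone 18, and the regions they held were not a random part of the 8030. For the region with the furthest rise, 6 of the 8 late clones that held it rose. The region on chromosome 18 fell in 9 of 9. Over the 12 named risen regions, the median number of late clones holding a region was 7.5, and the median number in which it rose was 6.5. For the 12 fallen regions the medians were 4.5 held and 4.0 falling. Some named regions kept their direction less often. The region at chr1:132922483-132922758 fell in 4 of 10, that at chr17:27962970-27963305 fell in 5 of 8, and that at chr14:99697690-99697901 rose in 3 of 5.

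**Figure D4:**
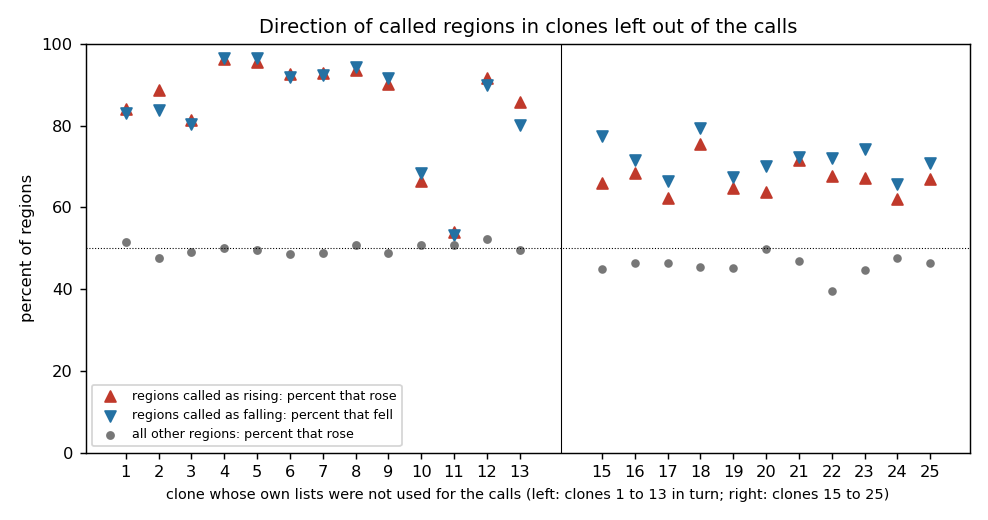
Percent of regions (vertical) that moved in the called direction in a clone not used for the calls (horizontal, clone number), with red triangles for risen, blue triangles for fallen and grey points for the share of all other regions that rose. In clones 1 to 13 the shares are lowest in clone 11, at 54.0% and 53.3%, and in clones 15 to 25 they lie between 62.1% and 79.5%.

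The clones differed in how much of the common change they showed. Between clones, the region-by-region changes correlated with a mean Pearson r of 0.460 over 78 pairs of clones. For the 12 pairs with clone 11 it was 0.0864, and for the 66 pairs without it 0.528. These values are across regions, which are not independent replicates, and every pair rests on 4 libraries. Set against the mean change of the other 12 clones, a clone's r ran from 0.119 in clone 11 and 0.343 in clone 10 to 0.848 in clone 4. The share of regions that moved by 10 points or more within one clone was 42.7% in clone 7 to 62.3% in clone 10. The median size of change within a clone was largest in clones 10 and 11, at 14.2 and 13.4 points, although they followed the common change least.

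The monocyte libraries ranked the regions more alike than the progenitor libraries did, but over all 13 clones the difference did not pass the test. The mean Spearman correlation was 0.902 ± 0.0618 (SD over 78 pairs) among monocytes and 0.840 ± 0.116 among progenitors. The difference, progenitors minus monocytes, was -0.0620 (two-sided exact permutation p = 0.101). It was -0.0196 without clone 11 (exact permutation p = 0.455) and -0.0798 without clone 3 (p = 0.0210). Without clones 3, 10 and 11 it was -0.0386, with an exact permutation p of 0.0254. A region's SD over clones had a median of 10.1 points in progenitors and 7.53 in monocytes, and 70.2% of the regions were more spread in progenitors. These spreads include clones 3, 10 and 11 and were not worked out without them.

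The libraries of one clone resembled each other slightly more than those of different clones. After each region was centred on the mean of its stage, the progenitor and monocyte libraries of one clone correlated at 0.113 ± 0.133 (SD, n = 13), and those of different clones at -0.00495 ± 0.158 (156 pairs). Same-clone minus other-clone correlation came to 0.118 (permutation of clone numbers, one-sided, p = 0.00586). The same-clone correlation was positive in 11 of 13 clones, from -0.116 in clone 3 to 0.404 in clone 7. It was not a signature that picks out a clone, since just 1 progenitor library and 2 monocyte libraries had their own clone as the best match. Ranked by the second score, the excess was 0.0159 (permutation p = 0.237). Without clones 3, 10 and 11 it was 0.160 (permutation p = 0.00197). With each library centred per chromosome it was 0.104 (permutation p = 0.0157). Both settings were chosen after the data were seen. These same clones had already shown a shared-peak result of this kind, so the values are not independent of it. Handling shared by the libraries of one clone number cannot be told apart from the clone.

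Rank changes were not spread evenly over the chromosomes. Chromosome X had 137 shared regions, of which 36.5% rose and 10.9% fell, against 23.9% and 21.9% over all chromosomes. Its mean percentile was 31.7 to 41.7 in the progenitor lists, median 36.2, and 31.2 to 44.5 in the monocyte lists, median 42.0. The mean change was 4.83 ± 4.54 points (SD, n = 13 clones), upwards in 11 clones. The 2 exceptions, clones 3 and 10, had the lowest monocyte values, 33.2 and 31.2. These monocyte libraries had the fewest tags of their stage at the median shared region, 37 and 35. Without clones 1, 6 and 13, 23.4% of its regions rose and 9.49% fell, against 19.1% and 17.6% over all chromosomes in that fit, and its mean change was 3.88 points.

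Chromosome 18 went the other way. Of its 210 regions, 33.3% fell and 18.1% rose, and its mean change was -3.55 ± 2.42 points (SD, n = 13), downwards in 12 of 13 clones. Without clones 1, 6 and 13, 26.67% fell and 13.33% rose, and its mean change was -3.50. Chromosome 11, with 725 regions, had 31.4% risen and 17.7% fallen and a mean change of 2.06 ± 1.99 points, upwards in 12 of 13 clones. No test was run on the chromosomes, which were singled out after their values were seen.

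Chromosome 1 differed among progenitor libraries. Of its 459 regions 29.0% fell and 11.3% rose. Its mean percentile in monocyte lists was 48.4 to 50.5 in all 13 clones. In progenitor lists it was 64.8 in clone 13, 63.8 in clone 6 and 59.8 in clone 1, and 45.9 to 54.4 in the other 10. The raised chromosome 1 ranks of these 3 progenitor libraries were absent from the monocyte libraries of the same clones, at 49.8, 49.6 and 50.3. Without those 3 clones, chosen after these values were seen, 20.04% of its regions fell and 14.4% rose, against 17.6% and 19.1% over all chromosomes in that fit. The mean change went from -3.55 to -0.749 points. The named fallen region at chr1:132922483-132922758 had a change of -46.4 points with all clones and -44.3 without those 3.

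Regions close together on a chromosome moved alike to a small degree. For 162 pairs of shared regions with centres under 1 kb apart, the mean changes correlated at r = 0.287, and for 93 pairs at 1 to 2 kb at r = 0.220. The value was 0.0165 for 139 pairs at 2 to 5 kb, 0.121 for 455 pairs at 5 to 10 kb and 0.0411 at 500 to 1000 kb. Neighbours share libraries, and the closest may be parts of one open region. Where both regions of a pair were called, 71.9% moved the same way under 1 kb, a share that rests on 32 pairs. It was 60.0% of 25 pairs at 2 to 5 kb, 72.6% of 84 at 5 to 10 kb and 56.0% of 5864 at 500 to 1000 kb, while random pairing of the calls would give 50.1%.

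Runs of called regions of the same kind were counted along the chromosomes. The run lengths of calls placed at random were not worked out, so the counts do not show whether calls stand apart or cluster. Taking shared regions in order along the chromosome, with gaps of at most 200 kb, 1140 runs of risen regions and 1195 of fallen regions held 1 region. The longest held 6 risen and 5 fallen regions. There were 3 runs of 6 risen regions. One spanned 380 kb at chr8:109580575-109960550, with a mean change of 15.5 ± 6.13 points (SD, n = 13), upwards in all 13 clones. The runs at chr17:34092576-34256549 and chr4:131631181-131909671 had mean changes of 13.8 ± 8.94 and 17.3 ± 7.02 points, upwards in 12 of 13 clones each, with lowest clone means of -8.09 and -1.21. A run of 5 fallen regions spanned 257 kb at chr17:21560031-21816949 with a mean change of -30.8 ± 10.6 points, downwards in all 13. Another 5 fell within 61.6 kb at chr8:4214407-4276026, by -24.4 ± 7.99 points, and one of them is the named region at chr8:4214407-4214683. The runs were singled out by their length after the values were seen, and no test was run on them.

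**Figure D5:**
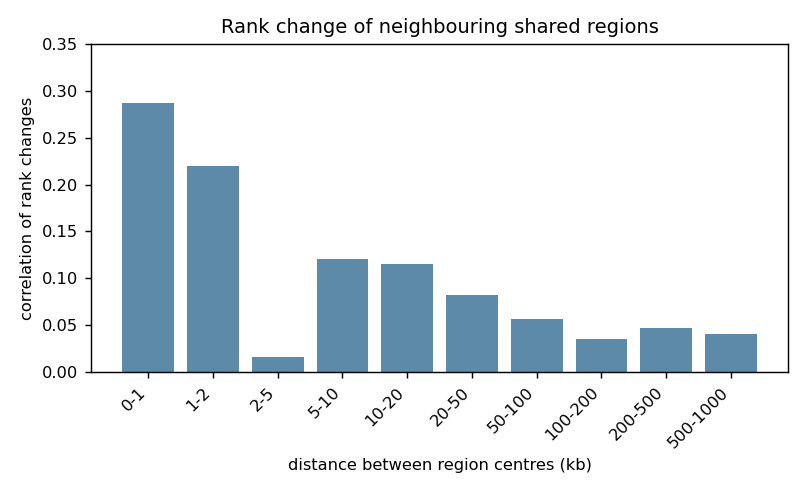
Pearson correlation of the mean rank changes of pairs of shared regions (vertical) by the distance between their centres in kb (horizontal). The bar is 0.287 under 1 kb, 0.0165 at 2 to 5 kb and 0.0411 at 500 to 1000 kb.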

How the data were processed

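ATAC-seq peak lists of 26 libraries, 13 progenitor and 13 monocyte, were grouped by their sample titles and source names and paired by clone number, because the series' own design text pairs the libraries clonally. Each library has 1 deposited list in mm9 coordinates, with a signal in its first value column and a score in its second, both without a header. Per the submitters' processing notes, BWA and mm9 were used. Neither the BWA version, nor the peak caller, filters on reads or a transposase offset, is given in the sources used here.

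The deposited signal lay on an evenly spaced ladder. For values under 40 steps, 98.3% to 100% per list lay within 0.1 step of a whole multiple, so 1 step was read as 1 tag. If the lists were scaled to one total, this gives relative depth, not the number of reads.

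Peaks overlapping by at least 1 bp were merged, and each region took its highest signal in each list. Regions held by all 26 lists were ranked within each library. Their percentiles were compared in limma 3.58.1 (R 4.3.3) with clone as a block, a trended prior and Benjamini-Hochberg adjustment over 8030 regions at 0.05. The fit was tested on simulated data. Clone numbers were checked by permutation with 100000 resamples, and the same-clone excess correlation was 0.118 (one-sided permutation p = 0.00586). Similarity within stages was compared by swapping stages within clones, in all 8192 arrangements. Named regions are the 12 per direction with the largest mean change among those past the threshold that moved one way in all 13 clones. Alternatives changed the ranking score, percentile scale, transform, test, pairing, region building, region set, low-rank filter and clones used. The clones, the question and the lists were chosen with earlier results of these data known.

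Gene lists and sequence features had been planned but were not used, since the reference tables are on GRCm38 and the lists on mm9. No annotation of these positions is given, and the cell labels were not checked against marker genes.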

Additional observations from a re-analysis of the deposited data

How the results depend on the processing

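Risen regions were 50.5% to 52.7% of the calls in the settings run. Ranking sets the mean change and centring the median change, so this evenness is not read as a finding. How far they set the counts of calls was not tested. Counts rose to 4124 and 3812 when regions in both lists of at least 10 clones were used (16420 tested), and to 4283 and 4193 for regions shared by the 20 lists without clones 3, 10 and 11 (14789 tested). Both settings test more regions. With 1 clone left out, counts were 1728 to 2126 risen and 1595 to 1999 fallen, the same-clone excess 0.0967 to 0.144, and the similarity difference -0.0798 to -0.0196. Without the replicate block, so without the pairing by clone, 1878 rose and 1733 fell, and of the first calls 94.9% and 94.8% were made again. All 24 named regions passed without it, and the other descriptions were not rerun without it. Ranking by the second score took the same-clone excess to 0.0159, and the similarity difference without clones 3, 10 and 11 was -0.0386. The named regions were picked from these same data for large changes that went one way in every clone. Leaving clones out therefore could not change their direction. The per-region test by swapping stages within clones had to give each its smallest p-value. Agreement in those settings, or in others that use the same signal, is not an independent check. Ranked by the second score, 17 of the 24 kept their direction and passed. Of 619 values of the 24 named regions over 26 settings, 612 kept their direction and side of the threshold. The other 7, all under the second score, were 6 that lost the threshold, at chr7:7230896-7231222 (11.6 points), chr11:53164145-53164374 (21.3), chr10:82092432-82092737 (8.87), chr7:6335858-6336096 (-19.2), chr7:95426396-95426718 (-1.97) and chr16:91465098-91465349 (-7.38), and the region at chr18:67448534-67448899, which moved by 19.95 points. The cause was not tested. The clone 11 progenitor list and the monocyte lists of clones 3 and 10 had the fewest tags at the median shared region, 30, 37 and 35. In these lists the step of the deposited signal was 0.268, 0.7913 and 0.7945. Steps ranged from 0.2334 to 0.3113 in progenitor lists and from 0.6479 to 1.316 in monocyte lists. The part of depth was not tested. Ranks do not show whether a region opened or closed, only its place among the others.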
